A study of Drosophila melanogaster with 6 samples.

Results

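The actin gene family of Drosophila melanogaster was examined in the midguts of virgin and mated females. Its members were taken by symbol, and all 6 were present among the 17116 genes of the count tables: the cytoplasmic actins Act5C and Act42A, and the muscle actins Act57B, Act79B, Act87E and Act88F. All flies were females of w1118, a laboratory strain with white eyes, and were 8 days old. Unmated virgins were the control group, and the mated group was dissected 3 days post-mating. Each group had 3 samples, each a pool of 30 guts. The series' design text speaks of guts and the sample labels of midgut, and neither says where the dissection ended, so how much adjoining tissue the samples hold is not known. Strand-marked libraries of polyadenylated RNA gave between 15902696 and 29021297 gene counts each. Nothing in the labels ties a pool to its own culture or cross, so the p-values describe the variation among these 6 samples, which could be technical.

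Actin is the protein that polymerises into thin filaments in every eukaryotic cell. Cytoplasmic actins build the cell cortex and, in the absorptive enterocytes of the gut, the cores of the microvilli that make up the brush border. Muscle actins build the thin filaments on which myosin pulls in the contractile unit, the sarcomere. The midgut holds both kinds, because its epithelium is wrapped in visceral muscle, the muscle coat that moves food along the tube. The family is among the most conserved known, and its members encode proteins that differ at few positions.

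In the annotation all 6 genes encode a protein of 376 residues, and on build dm6 they lie apart from each other. Act5C lies on X at 5900861 to 5905399 (plus strand) and has 5 annotated transcripts from 2 start sites. Act42A lies on 2R at 6013910 to 6015689 (minus strand) and Act57B on 2R at 20944021 to 20946431 (plus strand), each with 1 transcript. Act79B lies on 3L at 21985210 to 21987190, Act87E on 3R at 13425983 to 13428375 and Act88F on 3R at 15439969 to 15442177, all on the plus strand. Transcripts of Act87E have 2 start sites, and the first 196 bases of the gene overlap an antisense noncoding gene, CR45591, which had 0 counts in all 6 libraries. The counts hold reads placed at 1 position, so reads from stretches shared by several actins are missing and levels may be understated to a different degree for each gene. Reads with several positions, over the whole library, made up 4.3% to 5.0% in virgin and 5.7% to 7.7% in mated libraries. The loss may therefore also differ between the groups, and how many of these reads came from actins was not tested.

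Mated midguts held more transcripts of Act57B and Act87E, by 2.74-fold and 3.20-fold, and the other 4 actins did not pass the test. Both genes that passed are muscle actins; the remaining muscle actins, Act79B and Act88F, were present at only a few CPM (a gene's counts relative to the size of its library, sizes being scaled by the TMM method). The cytoplasmic actins Act5C and Act42A had higher means in mated midguts, 1.29-fold and 1.68-fold, with adjusted p of 0.230 and 0.193 in edgeR's quasi-likelihood test. Of all 8607 genes tested, 4.10% passed at an adjusted p below 0.05, 2.47% higher and 1.63% lower in mated midguts, against 2 of 6 actins, both higher. In bulk RNA of a whole organ, more muscle cells and more RNA per muscle cell cannot be told apart, nor can fewer cells and less RNA per cell.

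**Figure D1:**
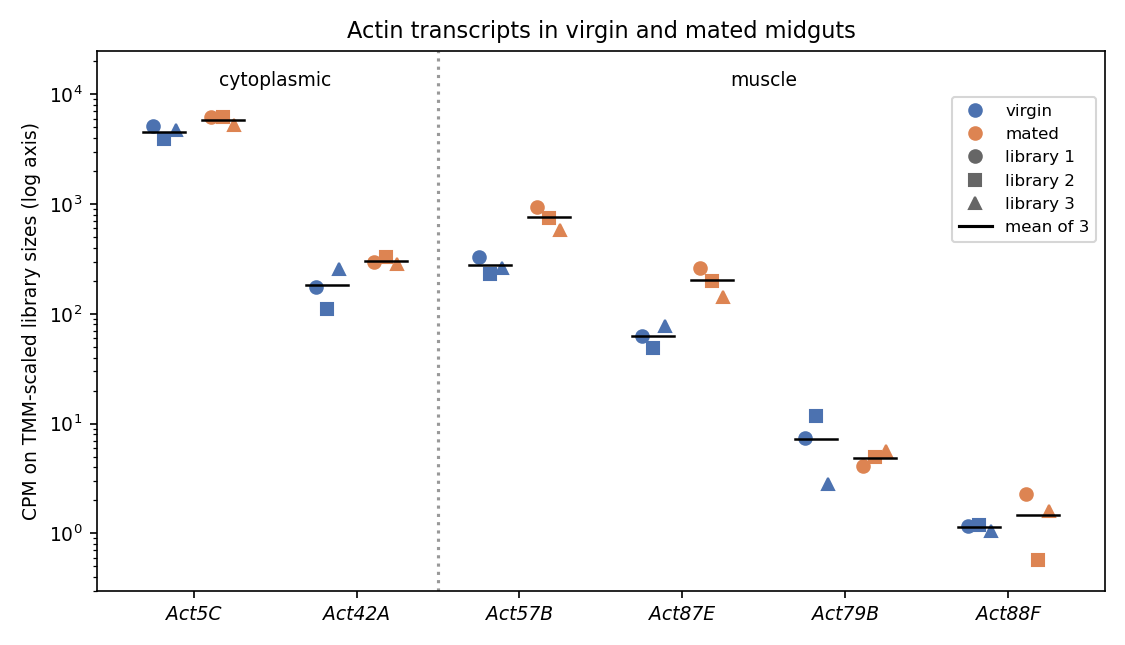
CPM (log axis) of each actin in the 3 virgin (blue) and 3 mated (orange) libraries; symbols mark the library number, which does not pair the groups, and bars the mean of 3. All mated libraries lie above all virgin libraries for Act5C, Act42A, Act57B and Act87E, and the groups overlap for Act79B and Act88F.

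Act57B is a main actin of larval body wall muscle and is also used in adult muscle. Its level was 333, 232 and 264 CPM in virgin libraries 1 to 3 and 934, 752 and 583 CPM in mated libraries 1 to 3. Every mated library thus lay above every virgin one, with mated 1 the highest. The group values were 276 ± 51.4 and 756 ± 176 CPM (SD, n = 3 each), and the log2 fold change was 1.45 ± 0.20 (SE; adjusted p = 0.00195, edgeR). With any 1 of the 6 libraries left out the gene still passed, with log2 fold changes of 1.27 to 1.64 and adjusted p of at most 0.0165.

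Act87E, another actin of larval and adult muscle, was lower than Act57B in every library. It had 62.8, 48.7 and 77.9 CPM in virgin libraries 1 to 3 and 263, 200 and 143 CPM in mated libraries 1 to 3. The groups did not overlap, and mated 1 was again the highest. The log2 fold change was 1.68 ± 0.24 (SE; adjusted p = 0.00563, edgeR). When 1 library was left out it ranged from 1.44 to 1.88, with adjusted p of at most 0.0462. Counted without regard to strand, the gene had fewer reads than on both strands together, by 2.57% to 10.8% of its own-strand reads, and the log2 fold change was 1.69 (adjusted p = 0.00297).

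Act79B is known as the actin of tubular muscles such as those of the legs. It had 7.44, 11.6 and 2.84 CPM in virgin and 4.07, 4.96 and 5.59 CPM in mated libraries 1 to 3, from 51 to 372 reads each. Virgin 2 and virgin 3 were the highest and the lowest of all 6, 4.09-fold apart, and the mated libraries lay between them. The log2 fold change was -0.59 ± 0.43 (SE; adjusted p = 0.541), and it was -0.09 without virgin 2.

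Act88F is the actin of the indirect flight muscle. It was close to the detection limit, with 35, 38 and 19 reads in virgin and 50, 9 and 30 reads in mated libraries 1 to 3. In CPM this was 1.06 to 1.19 in the virgin group and 0.573 to 2.28 in the mated group, and the groups overlapped. The 95% exact Poisson interval of mated 2, 0.262 to 1.09 CPM, lay below that of mated 1, 1.70 to 3.01 CPM; these intervals cover counting error only. The log2 fold change of 0.39 ± 0.68 (SE; adjusted p = 0.828) became -0.07 without mated 1. Of the 4 other flight muscle markers, fln and TpnC41C had 0 counts in every library, and the 4 together stayed at or below 0.191 CPM.

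Act5C, the ubiquitous cytoplasmic actin often used as a reference gene, supplied most actin reads. It had 5128, 3914 and 4722 CPM in virgin and 6169, 6223 and 5316 CPM in mated libraries 1 to 3, and ranked 23 by mean CPM among the tested genes. In CPM the groups did not overlap, but the lowest mated library, mated 3, was close to the highest virgin library, virgin 1. As unscaled shares of gene counts they overlapped. The shares were 0.532%, 0.435% and 0.533% in virgin and 0.530%, 0.600% and 0.492% in mated libraries 1 to 3. The log2 fold change was 0.36 ± 0.15 (SE), with a 95% interval of 0.04 to 0.69, an unadjusted p of 0.0306 and an adjusted p of 0.230 in edgeR. It did not pass in any of the other settings, where the adjusted p ranged from 0.0873 with DESeq2 to 0.669. Scaled by library size alone, its log2 fold change was 0.11 while the median of all genes was -0.30; with TMM scaling that median was -0.05.

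Act42A is the other cytoplasmic actin of the fly and was far below Act5C in every library. It had 177, 111 and 257 CPM in virgin and 298, 332 and 285 CPM in mated libraries 1 to 3. The virgin libraries were 2.31-fold apart and the mated ones 1.16-fold apart, and the groups did not overlap. The log2 fold change was 0.75 ± 0.27 (SE; adjusted p = 0.193, edgeR). Act42A passed with DESeq2 (adjusted p = 0.0163) and in edgeR without virgin 3, its highest virgin library (log2 fold change 1.10, adjusted p = 0.0295). In TMM-scaled CPM, groups that did not overlap were thus seen in 4 of 6 actins, all higher in mated midguts. Of all tested genes 23.9% had such groups, 11.6% with the mated group higher and 12.3% with it lower. The TMM factors were 1.04 to 1.13 in virgin and 0.86 to 0.965 in mated libraries. As unscaled shares of gene counts, the groups overlapped for both cytoplasmic actins. Act42A had 0.0183%, 0.0123% and 0.0289% in virgin and 0.0256%, 0.0320% and 0.0264% in mated libraries 1 to 3. Groups of Act57B and Act87E stayed apart in these shares.

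Levels of different genes were compared as CPM per kilobase of merged exons. In virgin libraries the means were 1541 for Act5C, 160 for Act57B, 112 for Act42A, 31.7 for Act87E, 4.51 for Act79B and 0.713 for Act88F. In mated libraries they were 1982, 439, 188, 102, 3.01 and 0.928 in the same order of genes. This order held in 5 of 6 libraries; in virgin 3 Act42A (158) stood slightly above Act57B (153), so these neighbours did not differ beyond their spread among virgin libraries. In mated libraries Act57B was 1.93 to 2.95 times Act42A. Act5C was 8.92 to 10.4 times as high per kilobase as Act57B in virgin and 3.82 to 5.28 times in mated libraries.

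The share of gene counts taken by the whole family was 0.558 ± 0.0674% for virgin and 0.657 ± 0.0692% for mated midguts (SD, n = 3 each; exact permutation p = 0.3, two-sided). Cytoplasmic actins alone made up 0.520 ± 0.063% and 0.569 ± 0.0579% (exact permutation p = 0.5), and their groups overlapped. Muscle actins made up 0.0378 ± 0.00476% and 0.0879 ± 0.0183% (exact permutation p = 0.1, the smallest that 3 against 3 libraries can give), and every mated library was above every virgin one. Within the family, the muscle members took 7.08%, 6.80% and 6.49% of actin counts in virgin libraries 1 to 3 and 15.7%, 12.8% and 11.6% in mated libraries 1 to 3.

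The ratio of muscle to cytoplasmic actin counts within a library, which does not depend on how libraries are scaled, was higher in mated midguts. Its log2 value was -3.78 ± 0.067 for virgins and -2.71 ± 0.26 for mated females (SD, n = 3 each), a difference of 1.07 or 2.10-fold (exact permutation p = 0.1, two-sided, the smallest possible). The difference was 0.93 to 1.18 when 1 library was left out and 1.05 per kilobase of exons. The shift was not shared by all pairs of genes. Of the 8 ratios of a muscle to a cytoplasmic actin, 3 had groups that did not overlap, all higher in mated libraries: Act57B over Act5C (difference 1.07), Act87E over Act5C (1.29) and Act87E over Act42A (0.83), each with an exact permutation p of 0.1. Act57B over Act42A had a difference of 0.61 and overlapping groups (exact permutation p = 0.2), with virgin 3 the lowest at 0.041. The ratios with Act79B or Act88F had overlapping groups and exact permutation p of 0.4 to 0.9. Within the classes, Act42A over Act5C differed by 0.46 and Act87E over Act57B by 0.22, and in both the groups overlapped (exact permutation p = 0.4 for each). With 3 against 3 libraries no adjustment over these ratios could bring any of them below 0.1.

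**Figure D2:**
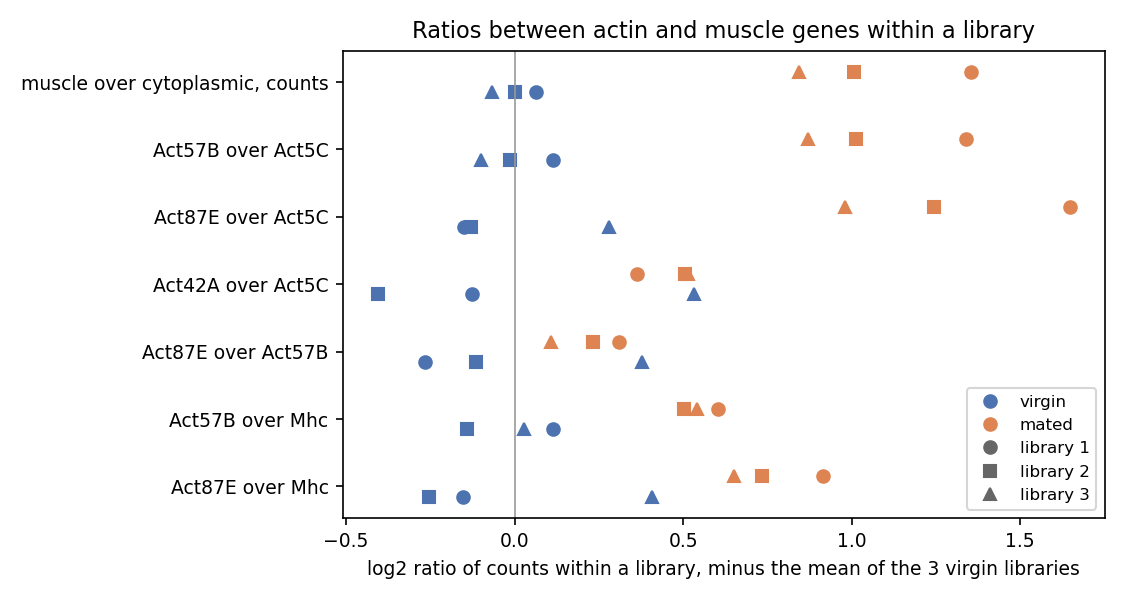
Log2 ratios of counts within each library, shown as the difference from the mean of the 3 virgin libraries, for 7 pairs of genes or classes; blue is virgin and orange mated, and symbols mark the library number. The mated libraries lie to the right of all virgin libraries for the muscle to cytoplasmic ratio, for Act57B and Act87E over Act5C and for both over Mhc, and the groups overlap for Act42A over Act5C and Act87E over Act57B.

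The muscle actins were next set beside the proteins they work with in the sarcomere. Of 19 such genes, which encode myosin chains, tropomyosins, troponins, titin-like proteins and Z-disc proteins, 13 rose, 0 fell and 6 did not pass in edgeR, with a median log2 fold change of 0.70 against -0.05 over all tested genes, of which 2.47% rose. All mated libraries lay above all virgin ones in 17 of 19, against 11.6% of all tested genes. The 3 with the smallest adjusted p were the muscle LIM proteins Mlp84B (2.54-fold, adjusted p = 0.000367) and Mlp60A (2.27-fold, adjusted p = 0.0031) and the calcium sensor TpnC47D, a troponin C (2.26-fold, adjusted p = 0.0056). The number that rose fell to 6 without virgin 2, virgin 3 or mated 1 and to 5 without mated 2, and was 8 when scaled by library size alone; these 3 genes passed whichever library was left out. No partner had a log2 fold change above that of Act57B, and the partners ranged from 0.18 to 1.35.

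Both muscle actins were higher in mated midguts also relative to Mhc, the muscle myosin heavy chain with which they share the sarcomere. The log2 ratio of Act57B to Mhc was -0.62, -0.88 and -0.71 in virgin and -0.13, -0.24 and -0.20 in mated libraries 1 to 3. That of Act87E to Mhc was -3.03, -3.13 and -2.47 in virgin and -1.96, -2.14 and -2.23 in mated libraries 1 to 3. The mated libraries lay above the virgin ones in both, by 0.55 and 0.77 on average (exact permutation p = 0.1 for each, two-sided, the smallest possible). Mhc itself rose 1.88-fold (adjusted p = 0.0122, edgeR), but did not pass without virgin 2, virgin 3 or mated 2 (adjusted p up to 0.0585). Over the summed counts of all 19 partners, Act57B and Act87E together were higher in mated libraries by 0.81 on the log2 scale and Act5C was lower, with a difference of -0.31; in both the groups did not overlap (exact permutation p = 0.1 for each). Act79B over Mhc had overlapping groups and a difference of -1.27 (exact permutation p = 0.2).

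**Figure D3:**
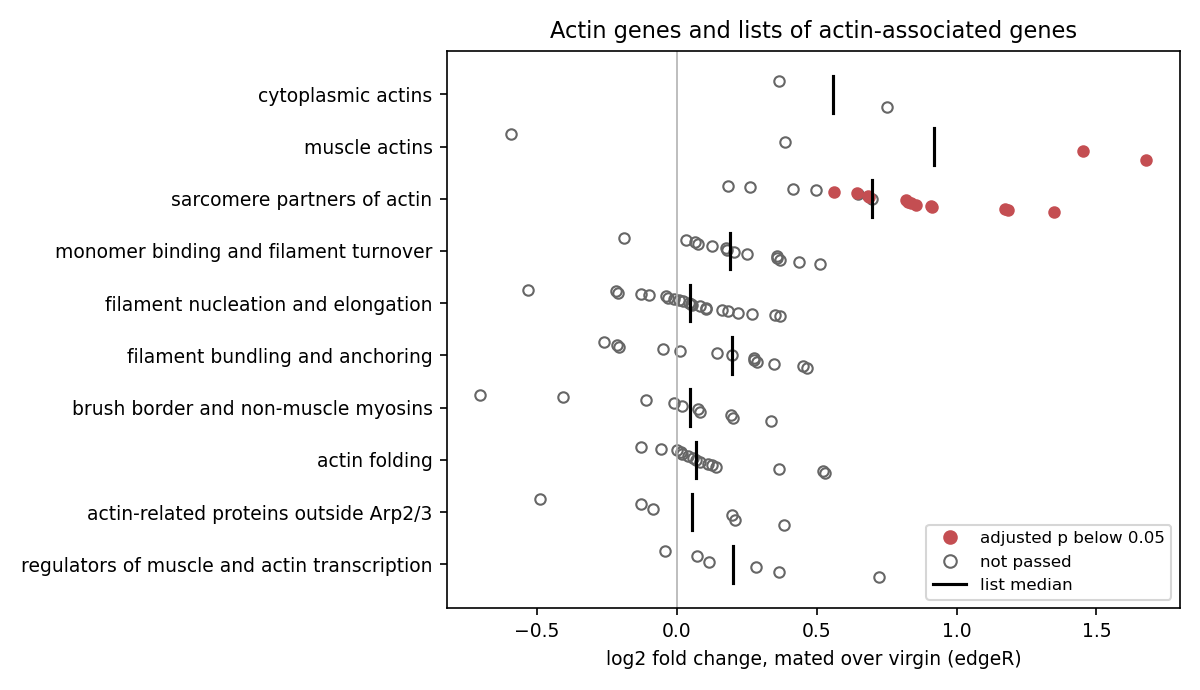
Log2 fold change (mated over virgin, edgeR) of the actins and of the genes in 8 lists of actin-associated genes; filled red points passed an adjusted p of 0.05, open points did not, and black bars are list medians. Called genes appear only among the muscle actins and the sarcomere partners.

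The 7 lists of actin-associated genes other than the sarcomere partners showed no call in edgeR. They are not free of sarcomere genes, since Actn and tmod, which also serve there, were counted in them (adjusted p = 0.11 and 0.596, edgeR). Of 89 genes in 7 lists, 86 were tested and 0 passed in edgeR, against 4.10% of all tested genes. The unadjusted p was below 0.05 for 17 of the 86, a count for which the share over all genes is not given here. DESeq2 called 5, 1 of them lower in mated midguts, against 603 of the 8976 genes it tested. With limma-voom 0 were called, against 340 of 8607 genes. The log2 fold changes had a median of 0.08, against -0.05 over all genes tested in edgeR, and 63 were positive. The median of 0.08 is small beside the shift between scalings, since library-size scaling turned the median of all 7 lists negative. Those list medians were -0.209 to -0.0568, above the median of -0.298 over all genes under that scaling.

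Among the 14 genes of monomer binding and filament turnover, 13 had positive log2 fold changes (median 0.19). The profilin chic, which loads actin monomers for growth, averaged 432 CPM in the virgin and 441 CPM in the mated group (adjusted p = 0.928). The cofilin tsr, which severs old filaments, had 371 and 502 CPM (adjusted p = 0.152, edgeR). It passed with DESeq2 (log2 fold change 0.46, adjusted p = 0.0412). In the list of nucleation and elongation factors, which start new filaments, the median was 0.05 over 22 genes. Its most abundant members were Arp2 (193 and 201 CPM, adjusted p = 0.888) and Arp3 (176 and 196 CPM, adjusted p = 0.551), the actin-related core of the branching complex. Of 14 bundling and anchoring genes 13 were tested (median 0.20), and Lasp is listed at 0 in all libraries; whether this comes from the annotation used for counting is not known. The spectrins that form the membrane skeleton under the cell cortex were abundant, with 1060 and 1210 CPM for kst (adjusted p = 0.61) and 682 and 825 CPM for beta-Spec (adjusted p = 0.318).

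The brush border and non-muscle myosin list had a median of 0.05 over 10 genes. Its leading members were the class I myosins of the enterocyte brush border, Myo61F (1790 and 1890 CPM, adjusted p = 0.824) and Myo31DF (553 and 512 CPM, adjusted p = 0.718). Among 15 genes of actin folding, which hold the ring-shaped chaperonin that folds newly made actin, the median was 0.07. CCT5 had 127 and 138 CPM (adjusted p = 0.709) and CCT8 had 108 and 114 CPM (adjusted p = 0.809). Of 7 actin-related proteins outside the branching complex, 6 were tested (median 0.06) and Arp53D had 0 counts. Arp1, a subunit of the dynactin motor complex, had 83.0 and 108 CPM (adjusted p = 0.125), and Arp10 had 16.6 and 19.0 CPM (adjusted p = 0.628). Of 7 regulators of muscle and actin transcription, 6 were tested (median 0.20). Mef2, the transcription factor of muscle differentiation, had 49.0 and 63.2 CPM (adjusted p = 0.248), and Mrtf, an actin-sensing coactivator, had 46.5 and 45.2 CPM (adjusted p = 0.901).

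Markers of other cell types were examined beside these values. The summed level of 6 enterocyte markers was 28700 to 41600 CPM for virgins and 35600 to 43600 CPM for mated females, and 1 of the 6 rose, the digestive protease gene epsilonTry (1.71-fold, adjusted p = 0.0135, edgeR). That call was lost when mated 2 or mated 3 was left out. Of 9 visceral muscle markers, 8 of which are also among the sarcomere partners, 7 rose and 2 did not pass, against 2.47% of all tested genes higher, and their sum was 1430 to 1730 CPM in virgin and 2250 to 3210 CPM in mated libraries. The number that rose was 5, 3 and 2 without virgin 1, 2 and 3, 4 and 1 without mated 1 and 2, and 7 without mated 3. Scaling by library size alone gave 4. The 7 that rose with no library left out are all sarcomere partners, which are not particular to visceral muscle. HLH54F, the marker outside that list, averaged 0.632 CPM in the virgin and 1.03 CPM in the mated group (adjusted p = 0.698, edgeR). Markers of the hindgut and Malpighian tubule, which adjoin the midgut, also differed: the 4 summed to 7.53 to 11.6 CPM in virgin and 25.4 to 59.4 CPM in mated libraries, and 1 of 4, Uro, rose (10.6-fold, adjusted p = 0.0363). Uro, an enzyme gene of the tubule, had 2.59, 3.63 and 1.17 CPM in virgin and 13.6, 22.2 and 44.8 CPM in mated libraries 1 to 3. Uro did not pass without any 1 of the virgin libraries or without mated 2 (adjusted p up to 0.134), nor without the filter on low counts (0.0936) or with the replicate number as a block (0.143). The other 3 did not pass: Irk1 averaged 3.49 CPM in the virgin and 6.95 CPM in the mated group, ct 1.13 and 2.58 CPM, and byn, the hindgut determinant, 2.75 and 2.08 CPM. The median log2 fold change of the 4 was 1.08, and 3 of 4 were positive; it was 0.84 or more in every other setting. The part of these tissues in the actin values was not tested.

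The remaining marker lists were low or alike. Germline and ovary markers, a tissue rich in cytoplasmic actin, summed to at most 30.8 CPM in virgin libraries, almost all in virgin 2 with 22.7 CPM of osk, and to at most 1.72 CPM in mated libraries; 3 of 8 had 0 counts throughout. Virgin 2 also had the lowest level of Act5C, Act42A, Act57B and Act87E. Hemocyte markers summed to 3.18 to 7.94 and 3.69 to 8.22 CPM, fat body markers to 79.6 to 301 and 102 to 288 CPM, progenitor markers to 58.8 to 77.2 and 61.2 to 66.3 CPM, and enteroendocrine markers to 254 to 300 and 258 to 280 CPM. One fat body marker, the gene named to, had 33.5, 0.127 and 0 CPM in mated libraries 1 to 3. In virgin libraries 1 to 3 it had 0.0996, 4.38 and 0 CPM. Mated 1 was also the highest library for Act57B and Act87E. Without virgin 2 and mated 1 together, Act57B and Act87E still passed, with log2 fold changes of 1.16 (adjusted p = 0.0122) and 1.29 (adjusted p = 0.0118), while 3 of the 19 sarcomere partners did.

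**Figure D4:**
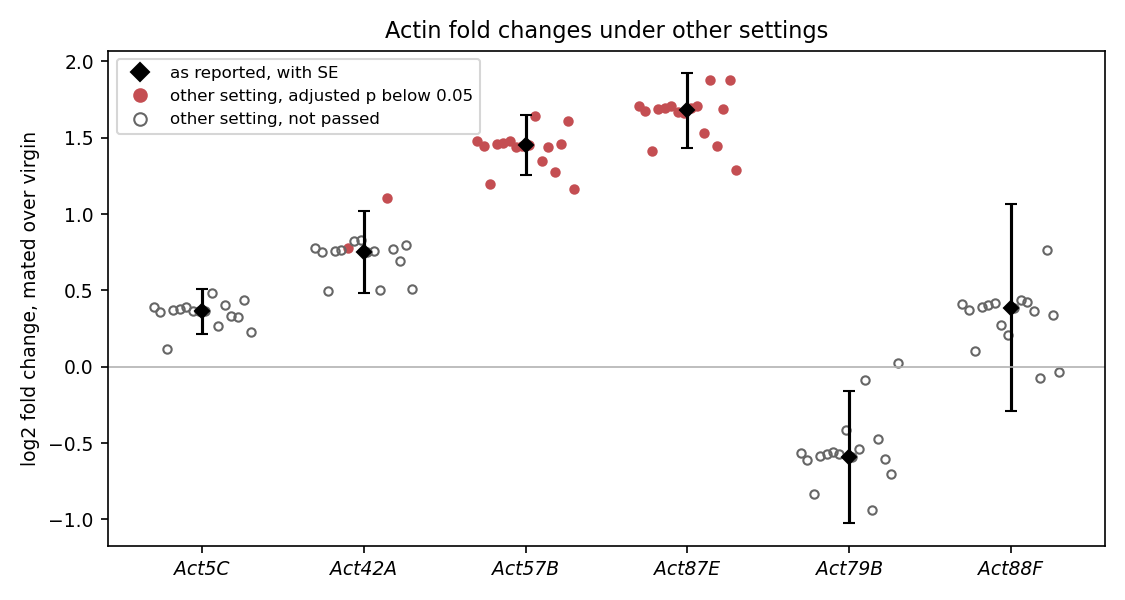
Log2 fold change of each actin as reported (black diamond with SE) and under 16 other settings (circles; red where the adjusted p was below 0.05). Act57B and Act87E passed in every setting shown, Act42A in 2, and Act5C, Act79B and Act88F in none.

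The genes whose pattern over the 6 libraries was most like that of each actin were found by the root mean square difference of log2 CPM after centring on the gene's mean, among 5489 or 5490 other genes with a mean of at least 10 CPM. For Act57B the 5 closest were hh, GlcAT-S, Mlp60A, Mlp84B and CG9394, at 0.133 to 0.157. For Act87E they were CG2065, hh, CG8468, Act57B and GlcAT-S, at 0.12 to 0.234. Act57B was thus the fourth closest of the compared genes to Act87E, at 0.23, whereas Act5C and Act42A lay 0.688 and 0.503 from it. Here hh encodes the Hedgehog signal (1.34 on the log2 scale, adjusted p = 0.00396), and the sarcomere protein genes Mlp60A and Mlp84B are the muscle LIM proteins above.

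For Act5C the 5 closest genes were CG8768, Yif1, CG1486, Rtnl1 and Srp19, at 0.0374 to 0.0419, of which Yif1 and Srp19 are named for parts in the secretory pathway. None of these 5 passed the test (adjusted p of 0.218 to 0.435). For Act42A they were dsx, CG7191, CG42335, CG15210 and CG42397, at 0.109 to 0.164; of these CG42397 passed (adjusted p = 0.0313, edgeR), but not without virgin 1 or any 1 of the mated libraries (0.0566 to 0.132). The gene dsx, which encodes the sex-determination factor Doublesex, had an adjusted p of 0.131 and, like Act42A, passed without virgin 3 (0.0281). The closest genes to Act79B and Act88F were no nearer than 0.263 and 0.277. Act79B was the farthest from the other actins, with differences of 0.778 to 1.34. With 6 libraries and this many genes, close matches arise readily, and these distances are descriptions only.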

How the data were processed

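The authors deposited raw whole-number read counts for each gene of each sample, with separate unstranded, forward-strand and reverse-strand columns as STAR writes them. The submitters' processing notes name CASAVA 1.8.4, STAR, DESeq2 1.42.0 and build dm6 without their roles; which annotation was counted is not stated there. TRIzol extraction and stranded TruSeq mRNA libraries are given per the labels' protocols, and reverse-strand counts were therefore used. Summary rows stayed out of library sizes. Their mean shares for virgin and mated libraries were 4.73 ± 0.366% and 6.75 ± 1.01% (SD, n = 3 each) for reads with several positions, 6.97% and 6.42% for reads outside genes, 9.13% and 9.21% for unmapped reads, and 1.24% and 1.20% for ambiguous reads. Positions and exon lengths come from an Ensembl annotation in dm6 coordinates, which held all 6 actins.

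Counts were tested with edgeR 4.0.16 in R 4.3.3 (filterByExpr, which left 8607 genes including all 6 actins; TMM; glmQLFit with robust dispersion; a two-sided glmQLFTest without covariates), with Benjamini-Hochberg adjustment over all tested genes and a threshold of 0.05. Standard errors were derived from the F statistic. The common biological coefficient of variation was 0.291, and libraries of a group differed by more than sampling noise (chi-square over its degrees of freedom 23.3 or more). Ratios and shares were compared by exact permutation tests. The fit was also run on simulated counts drawn with its own estimated dispersions, and no result above rests on that run. Genes named are the actins, up to 3 passing members of each pathway list with the smallest adjusted p or else its 2 most abundant members, and the 5 genes most alike to each actin; Mhc and markers were named after their values were seen. The members and lists were chosen with earlier results of these data known. Alternatives were other scalings, filters and tools (limma-voom 3.58.1, DESeq2), a threshold of 0.01, the replicate block, the unstranded column, other ways of counting the ratio and the share, and libraries left out.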

Additional observations from a re-analysis of the deposited data

Results flagged for a closer look

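Counts on the forward strand, opposite to the actin transcripts, lay outside the comparisons and were above the limit of 3 counts for 4 genes. Over the 6 libraries they came to 1778 for Act5C, 50 for Act57B, 38 for Act87E and 4 for Act42A. For Act5C this was 0.13% to 0.387% of the counts of both strands, below the 1.86% to 2.32% seen over all genes. At Act87E the forward-strand counts were 0 in each virgin library and 14, 16 and 8 in mated libraries 1 to 3, or 0.243% to 0.506%; the antisense gene CR45591 had 0 counts in all 6. No Dixon test for a sample apart from its group was run on the 3 libraries per group.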

How the results depend on the processing

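Act57B and Act87E kept their direction and call in all 17 alternatives each. The number of actins that passed was 2 in all but 2 alternatives, DESeq2 and the fit without virgin 3, where it was 3, and it was 2 to 3 with 1 library left out. The number of genes passing was 353, against 872 when scaled by library size alone, 603 with DESeq2, 134 at a threshold of 0.01, 191 without virgin 2 and mated 1 together, and 169 to 308 with 1 library left out; library-size scaling gave 146 higher and 726 lower genes in place of 213 and 140. The ratio of muscle to cytoplasmic actins and the actin share kept their direction, at 0.93 to 1.18 (log2) and 0.0603 to 0.134 percentage points with 1 library left out, and the share difference of 0.0992 was 0.202 with the 10 most abundant genes left out. Signs changed for genes that had not passed: under library-size scaling chic (-0.22), Arp2 (-0.19), Arp3 (-0.090), kst (-0.058), Myo61F (-0.18), CCT5 (-0.13), CCT8 (-0.18) and Arp10 (-0.066); without virgin 2 and mated 1 together Act79B (0.027), Act88F (-0.036) and Myo61F (-0.043); and with 1 library left out Act88F (-0.070 to 0.77), chic (-0.012 to 0.12), Arp2 (-0.025 to 0.17), Myo61F (-0.00099 to 0.15) and Mrtf (-0.092 to 0.024, with 0.017 without virgin 1). The cause was not tested. With the replicate number as a block, 290 genes and 2 actins passed; same-numbered libraries did not deviate together (correlations of -0.155, -0.0496 and -0.0272 across genes), so the numbers were not taken as pairs. Counting per base that is unique in the genome was not run. Few reads limit Act88F (9 to 50 per library) and Act79B.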
